A study of Mus musculus with 25 samples.

Results

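The brown fat thermogenic genes are 10 genes that brown and beige adipocytes use to burn fat for heat: Ucp1, Cidea, Cox8b, Cox7a1, Elovl3, Slc27a2, Ppargc1a, Dio2, Otop1 and Kcnk3. They were taken by name out of the 19937 genes measured, each through the probe set with the highest mean over 25 Affymetrix whole-transcript arrays of mouse mammary tissue. The choice used no contrast between groups as a rule, but it was made with earlier results of these data known. All 10 had a probe set with a single gene symbol, and no gene was dropped for low values.

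The arrays fall into 4 groups. The K8 tumors (n = 10) were mammary tumors of K8-creERT2/PIK3CA H1047R mice on a mixed background FVB/CD1. The Lgr5 tumors (n = 10) came from Lgr5-creERT2/PIK3CA H1047R mice on a mixed background FVB/C57/BL6. The controls were mammary glands of K8-creERT2 ctrl mice (n = 2) and of Lgr5-creERT2 ctrl mice (n = 3), each on the background of its own line. The labels give 1 treatment text for all groups, in which tamoxifen was injected at 7 to 8 weeks of age to switch on the mutant PIK3CA and tumors were collected once they had developed. In these mice a tamoxifen-dependent Cre recombinase is driven from the K8 (keratin 8) or Lgr5 gene, so the mutant kinase can arise in any cell that uses that driver at the time of injection, and line and genetic background cannot be told apart. The labels do not say whether tumors came from separate animals, so p-values measure the spread between these arrays. Values are deposited log2 intensities without detection calls, ranging between 4.13 and 13.94 with a first quartile of 5.37, and the number of arrays limits the precision.

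Brown adipocytes hold many mitochondria and small lipid droplets. Noradrenaline released by sympathetic nerves acts on their beta-adrenergic receptors and raises cyclic AMP, which starts lipolysis and raises transcription of the thermogenic genes. The freed fatty acids activate UCP1, a carrier of the inner mitochondrial membrane that lets protons back into the matrix without making ATP, so that respiration gives heat. Mouse mammary glands lie in subcutaneous fat pads in which beige adipocytes, which also make UCP1, can appear, and the interscapular brown depot lies near the cervical and thoracic glands. Several of the 10 genes are used elsewhere too: Cox7a1 and Cox8b in heart and skeletal muscle, Cidea and Elovl3 in sebaceous glands, and Cidea in the lactating mammary epithelium.

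Promoter windows are shown for 4 members because cyclic AMP signals can act through CRE sequences. Over the 25 arrays Ucp1 and Cox7a1 ran alike (Pearson r = 0.98), whereas Ppargc1a (0.71) and Dio2 (0.52) followed Ucp1 less closely. The RefSeq table of promoters (build GRCm38.p6, 250 bases before to 50 after the start of each gene) held 7 of the 10 members; Cidea, Elovl3 and Kcnk3 were not among them. The windows lie at chr8:83290098-83290397 on the + strand for Ucp1, chr7:30183921-30184220 on the + strand for Cox7a1, chr5:51567676-51567975 on the - strand for Ppargc1a and chr12:90738989-90739288 on the - strand for Dio2. Each sequence runs 5′ to 3′ along its gene. Capitals mark the CRE core TGACG and the nuclear receptor core site AGGTCA, on either strand.
Ucp1: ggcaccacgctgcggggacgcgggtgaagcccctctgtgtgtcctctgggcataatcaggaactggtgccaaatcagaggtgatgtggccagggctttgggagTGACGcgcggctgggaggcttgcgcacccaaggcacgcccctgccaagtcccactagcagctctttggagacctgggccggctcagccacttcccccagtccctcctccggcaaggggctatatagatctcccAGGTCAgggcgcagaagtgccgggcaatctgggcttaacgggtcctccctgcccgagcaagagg
Cox7a1: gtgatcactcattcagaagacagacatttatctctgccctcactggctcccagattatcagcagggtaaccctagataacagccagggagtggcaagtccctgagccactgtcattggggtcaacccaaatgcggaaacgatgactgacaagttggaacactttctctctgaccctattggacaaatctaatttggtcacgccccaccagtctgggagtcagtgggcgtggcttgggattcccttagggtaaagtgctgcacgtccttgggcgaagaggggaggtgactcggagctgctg
Ppargc1a: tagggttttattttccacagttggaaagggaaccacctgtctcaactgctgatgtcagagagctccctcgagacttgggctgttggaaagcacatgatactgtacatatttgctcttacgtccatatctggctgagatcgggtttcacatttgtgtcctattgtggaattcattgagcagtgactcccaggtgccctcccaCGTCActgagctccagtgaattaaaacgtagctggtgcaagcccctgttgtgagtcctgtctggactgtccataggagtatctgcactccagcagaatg
Dio2: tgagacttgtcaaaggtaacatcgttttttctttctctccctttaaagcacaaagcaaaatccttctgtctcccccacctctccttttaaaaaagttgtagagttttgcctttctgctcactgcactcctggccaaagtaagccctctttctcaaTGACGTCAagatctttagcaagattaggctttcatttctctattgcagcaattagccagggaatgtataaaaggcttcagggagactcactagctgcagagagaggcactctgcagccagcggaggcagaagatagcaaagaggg

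The CRE core was found in 3 of the 7 windows, those of Ucp1 (first base at position -147 from the start), Dio2 (position -95) and Ppargc1a (position -49), against 20.9% of all 32544 windows. The full CRE TGACGTCA, in which CRE cores of both strands overlap, stood in the Dio2 window alone of the 7 and in 1.8% of all windows. AGGTCA, a core site bound by many nuclear receptors, was found in Ucp1 (position -14) and Slc27a2 (position -220), and in 16.2% of all windows. The Cox7a1, Cox8b and Otop1 windows held neither motif. A TATAAA box, searched on both strands, was present in Cox8b and Dio2 and in 13.6% of all windows, and the ERR element TCAAGGTCA in 0 of the 7 and 0.412% of all. These matches describe the letters of the windows only.

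Tissue markers set several arrays apart from their labels, and this bears on every comparison of the thermogenic genes. Lgr5 tumors 2, 6, 7, 8 and 9, as labelled, had log2 means of 12.17 to 12.31 over 18 adipocyte genes, and the 20 others 7.23 to 10.95. In the same 5 arrays the mean of 11 luminal epithelial genes was 8.98 to 9.90, against 10.73 to 11.49 elsewhere, and 11 cell cycle genes averaged 6.77 to 7.82, against 8.12 to 9.84. Squamous epithelial genes averaged 8.61 to 10.37 in the arrays labelled gland and 9.34 and 9.76 in K8 tumor 9 and Lgr5 tumor 10, against at most 8.16 in the other tumors. Skeletal muscle genes, 20 in all, averaged 10.35 in Lgr5 tumor 4, 10.14 in K8 tumor 7, 9.62 in Lgr5 tumor 1, 9.34 in Lgr5 tumor 10, 8.47 in K8 tumor 8, 8.14 in K8 tumor 3 and 8.02 in Lgr5 gland 3, and 6.25 to 7.10 in the 18 others. The arrays labelled gland had cell cycle means of 9.29 to 9.84, and the highest in an array labelled tumor was 9.47 (Lgr5 tumor 10). The adipocyte, luminal and cell cycle values go against the labels of Lgr5 tumors 2, 6, 7, 8 and 9. In their squamous means K8 tumor 9 and Lgr5 tumor 10 were like the arrays labelled gland and unlike the other tumors. Their markers alone do not tell which of these labels hold. The cell cycle and squamous means of the arrays labelled gland go against their label as well. Whether labels were exchanged was not tested, and an exchange would change what each tumor minus gland value stands for. Groups are called by their labels throughout, and each direction is one between labelled arrays. In such bulk samples, fewer cells of a type and less RNA per cell cannot be told apart.

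Ucp1, the uncoupling protein that defines thermogenic fat, was measured at 5.49, 5.58 and 11.30 (lowest, median and highest of the K8 tumors) and at 5.46, 8.43 and 12.47 in the Lgr5 tumors, against 5.54 and 5.63 in the K8 glands and 5.61, 5.60 and 5.85 in the Lgr5 glands. Its highest values were 12.47, 12.07 and 12.18 in Lgr5 tumors 6, 7 and 8. Next came 11.30 in K8 tumor 7, 10.00 in Lgr5 tumor 4, 9.49 in Lgr5 tumor 1, 8.10 in K8 tumor 3 and 7.37 in Lgr5 tumor 10. The other 12 tumors, 8 of the K8 and 4 of the Lgr5 line, lay between 5.46 and 5.92, beside 5.54 to 5.85 in the 5 glands. Among the Lgr5 tumors 6 of 10 had 7.37 or more, and Lgr5 tumors 2 and 9, at 5.92 and 5.89, lay just above the highest gland (5.85). Ucp1 spanned 7.01 log2 units over the 25 arrays, which ranked 17 among the 19937 genes.

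The 5 adipocyte-rich arrays did not share this signal. Lgr5 tumors 2 and 9 had Ucp1 at 5.92 and 5.89, beside 12.47, 12.07 and 12.18 in Lgr5 tumors 6, 7 and 8, while Adipoq (adiponectin, a hormone of all adipocytes) stayed between 12.86 and 12.95 in all 5 and Plin1 (perilipin, the lipid droplet coat) between 12.61 and 12.92. Muscle list means were 6.58, 6.71 and 6.66 in Lgr5 tumors 6, 7 and 8, beside 6.67 and 6.57 in Lgr5 tumors 2 and 9, and luminal means were 9.55, 9.55 and 8.98, beside 9.25 and 9.90, so both overlapped where Ucp1 did not. The plot of Ucp1 against the adipocyte list mean shows both sets at the right edge, one at the top and one at the bottom.

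**Figure D1:**
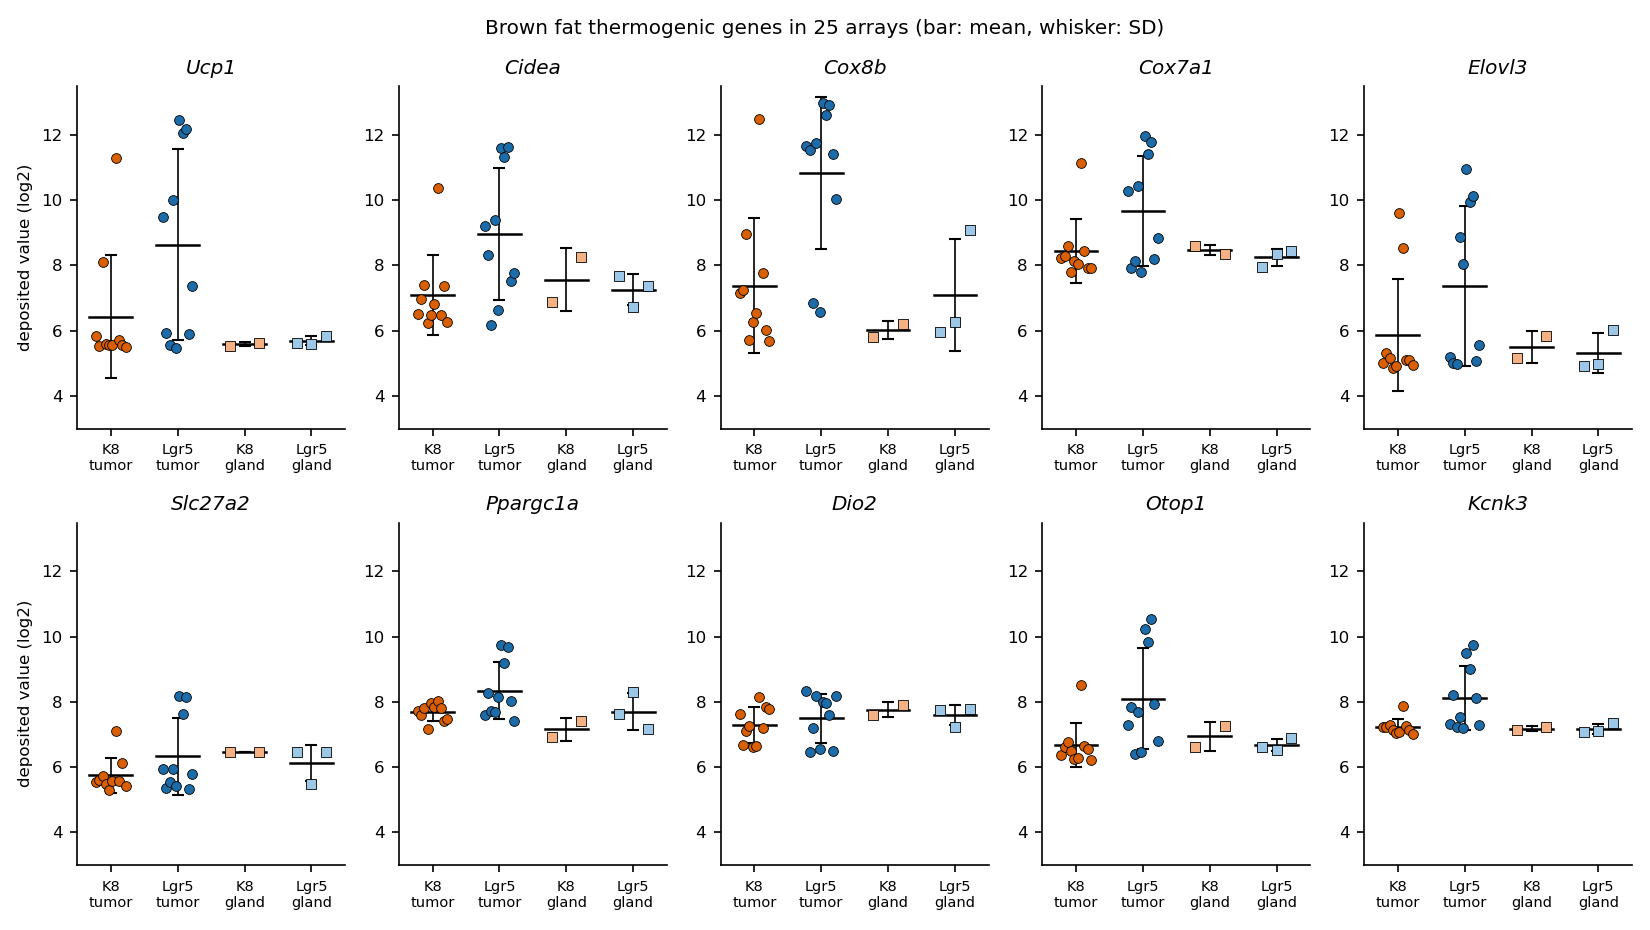
Log2 value (vertical axis) of each of the 10 genes in the 25 arrays, one panel a gene, with K8 tumors, Lgr5 tumors, K8 glands and Lgr5 glands from left to right; points are arrays, bars the group mean and whiskers the SD. Ucp1 reached 12.47 in the Lgr5 tumors and stayed at or under 5.85 in the 5 glands, and Dio2 spanned 1.88 log2 units in all.

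Cidea, a protein of lipid droplets that is high in brown fat, followed the same split. It was 11.61, 11.33 and 11.64 in Lgr5 tumors 6, 7 and 8, beside 8.33 and 7.53 in Lgr5 tumors 2 and 9. Among K8 tumors it lay at 6.22, 6.66 and 10.38 (lowest, median and highest), against 6.88 and 8.25 in the K8 glands, so all K8 tumors but tumor 7 were below the higher of the pair of K8 glands. Lgr5 glands had 7.67, 6.74 and 7.36. Its paralog Cidec, which builds the large droplets of white adipocytes, was 12.48 to 12.76 in all 5 adipocyte-rich arrays and did not split. Cideb, the paralog known from liver, was 7.12, 6.72 and 6.80 in Lgr5 tumors 6, 7 and 8, beside 5.77 and 5.78 in Lgr5 tumors 2 and 9.

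Cox7a1 and Cox8b are isoforms of small subunits of cytochrome c oxidase, the last complex of the respiratory chain, and both are also used in muscle. Cox7a1 was 11.97, 11.43 and 11.79 in Lgr5 tumors 6, 7 and 8, beside 7.93 and 8.19 in Lgr5 tumors 2 and 9, which lay inside or just under the 7.96 to 8.59 of the 5 glands. Cox8b behaved otherwise: its values were 12.97, 12.62 and 12.92 in Lgr5 tumors 6, 7 and 8 and also high, at 11.53 and 11.43, in Lgr5 tumors 2 and 9 beside Ucp1 values of 5.92 and 5.89. Outside these arrays Cox8b was highest in K8 tumor 7 (12.49), Lgr5 tumor 4 (11.76), Lgr5 tumor 1 (11.65) and Lgr5 tumor 10 (10.03), the 4 arrays with the highest muscle list means.

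Cox8b and the muscle genes parted from Ucp1 in further arrays. Lgr5 gland 3 had Cox8b at 9.08 and a muscle list mean of 8.02, beside 5.97 and 6.26 for Cox8b in Lgr5 glands 1 and 2, whereas its Ucp1 was 5.85. K8 tumor 8 likewise had Cox8b at 7.78 and a muscle mean of 8.47 with Ucp1 at 5.72. K8 tumor 3, with a nearly equal muscle mean of 8.14, had Ucp1 at 8.10. All 5 arrays outside Lgr5 tumors 6, 7 and 8 in which Ucp1 was 7.37 or more had muscle list means of 8.14 or more, and the part of muscle in the values of Cox8b and Cox7a1 was not tested. The widely used isoforms covered narrower ranges, 11.51 to 12.46 for Cox8a and 10.81 to 11.47 for Cox7a2 over the 25 arrays. Cox8a was 12.19 to 12.46 in the 5 adipocyte-rich arrays, against at most 11.92 in the others, and was lower in K8 tumors than in Lgr5 tumors (-0.38 ± 0.11, SE; limma adjusted p = 0.0213).

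**Figure D2:**
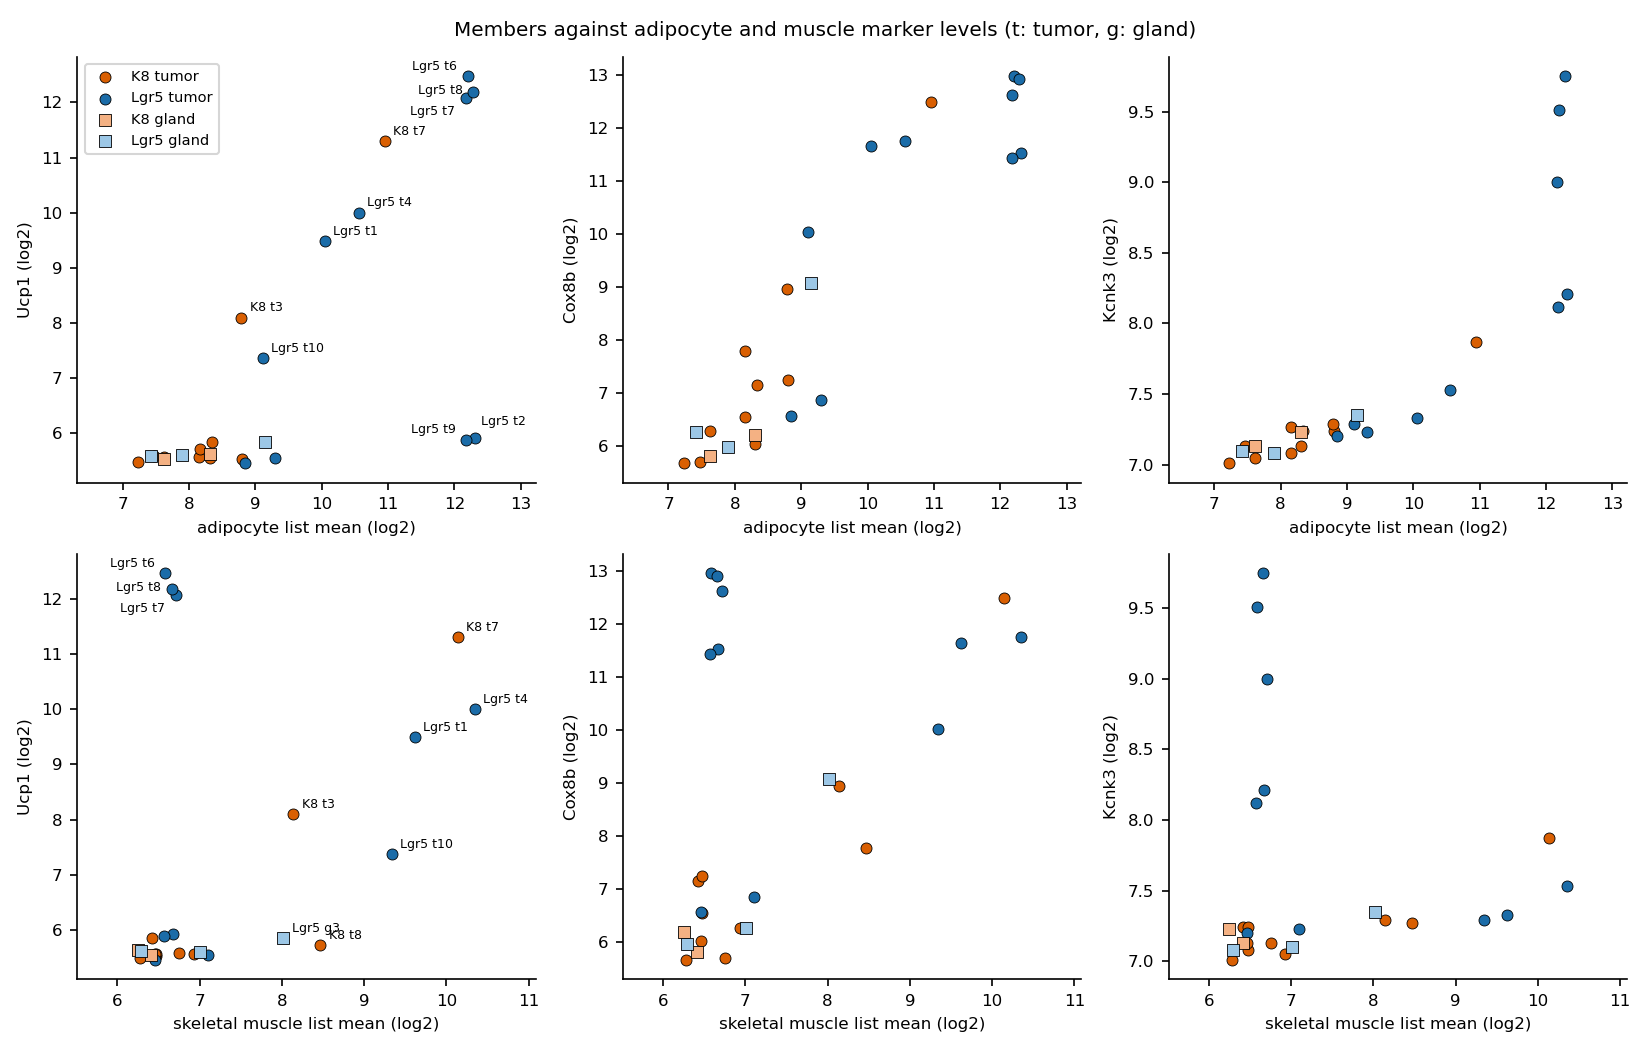
Log2 values of Ucp1, Cox8b and Kcnk3 (vertical axes, left to right) against the mean log2 value of 18 adipocyte genes (upper row) and of 20 skeletal muscle genes (lower row), 1 point an array, with selected arrays named in the Ucp1 panels. At adipocyte means of 12.17 to 12.31, Ucp1 was 12.07 to 12.47 in Lgr5 tumors 6, 7 and 8 but 5.92 and 5.89 in Lgr5 tumors 2 and 9, while Cox8b was 11.43 or more in all 5.

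Elovl3 and Slc27a2 handle fatty acids: Elovl3 elongates saturated very long chain fatty acids and is strongly cold-induced in mouse brown fat, and Slc27a2 imports fatty acids and joins them to coenzyme A. Elovl3 was 10.96, 9.93 and 10.14 in Lgr5 tumors 6, 7 and 8, against 5.01 and 5.06 in Lgr5 tumors 2 and 9. Slc27a2 was 8.17, 7.63 and 8.16 in the first 3 of these arrays and 5.37 and 5.33 in the other pair, below the 6.46, 6.47, 6.45, 5.48 and 6.46 of the 5 glands. For both genes the 3 arrays with high Ucp1 were the highest of all 25.

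Elovl3 was also raised where Ucp1 was not. It reached 9.60 in K8 tumor 6 and 8.03 in Lgr5 tumor 5, with Ucp1 at 5.57 and 5.46, and 8.53 in K8 tumor 7 and 8.86 in Lgr5 tumor 4, which had Ucp1 at 11.30 and 10.00. The remaining arrays lay between 4.87 and 6.02. Awat1, an enzyme that makes wax esters in sebaceous glands, was 8.56 in K8 tumor 6, 8.00 in Lgr5 tumor 4 and 7.04 in Lgr5 tumor 5, against 5.28 to 5.53 in the 22 other arrays. Some other lipid genes of sebaceous glands showed the same 3 arrays: Dgat2l6 was 7.89, 7.12 and 5.95 there, against 5.26 to 5.54 elsewhere, and Far2 was 9.79, 8.50 and 8.37, against 5.61 to 6.81. Others of the list did not. Awat2 was 6.60 in K8 tumor 6 and 6.31 in Lgr5 tumor 4 but 5.70 in Lgr5 tumor 5, against 5.51 to 5.78 elsewhere. Fads2b was 5.29, 5.73 and 4.97 in the 3 arrays, below the 6.10 to 9.65 of the glands. The whole list of 10 sebaceous genes, Elovl3 and Cidea left out, averaged 8.20, 8.25 and 7.48 in the 3 arrays and 6.64 to 7.89 in the others, so it overlapped. In Lgr5 tumors 6, 7 and 8 Awat1 was at 5.53, 5.43 and 5.47, in the range of the arrays without raised Elovl3, and the part of sebaceous cells in the Elovl3 values was not tested.

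**Figure D3:**
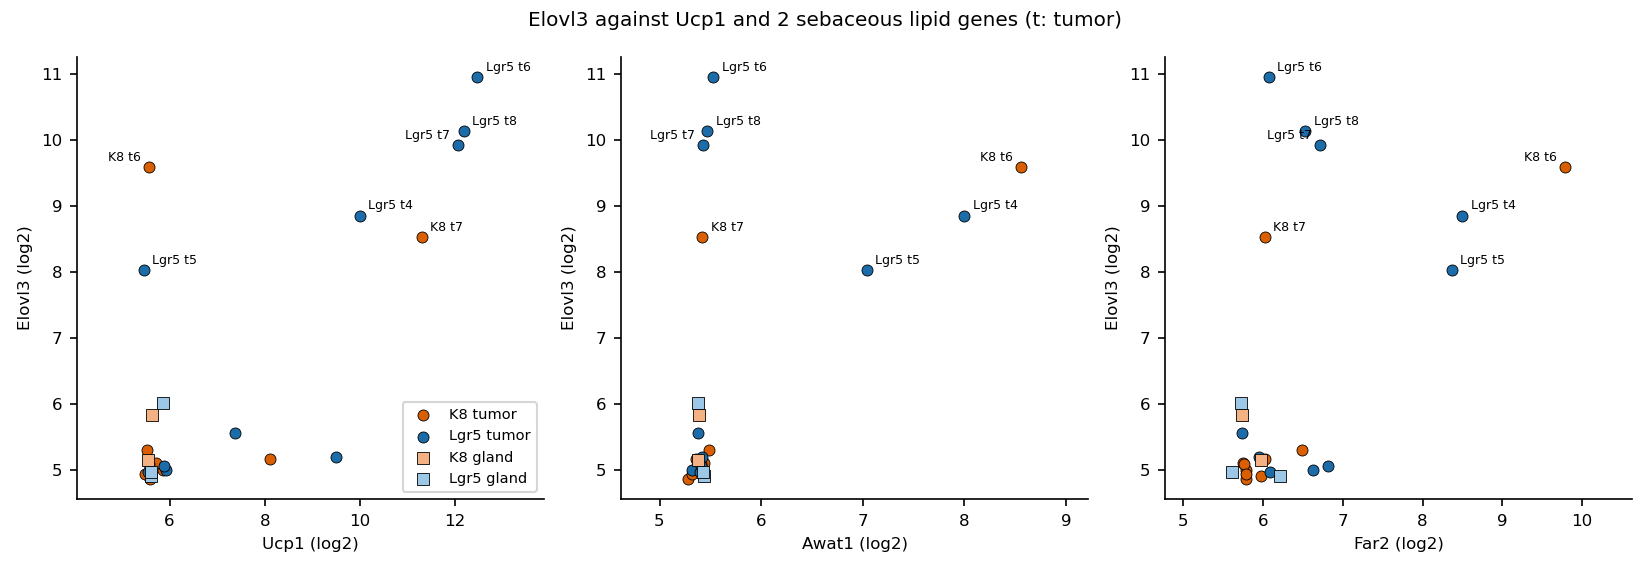
Log2 value of Elovl3 (vertical axis) against that of Ucp1, Awat1 and Far2 (horizontal axes, left to right), 1 point an array, with arrays of raised Elovl3 named. Elovl3 was high both in arrays with high Ucp1 and Awat1 at 5.43 to 5.53 (Lgr5 tumors 6, 7 and 8) and in arrays with Ucp1 at 5.57 and 5.46 and raised Awat1 (K8 tumor 6 and Lgr5 tumor 5).

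Ppargc1a and Dio2 act upstream of Ucp1. Ppargc1a is a coactivator that drives mitochondrial and thermogenic genes, with 9.74, 9.18 and 9.67 in Lgr5 tumors 6, 7 and 8, 8.26 and 8.02 in Lgr5 tumors 2 and 9, and 6.91 to 8.31 in the other 20 arrays. Its level was highest in the same 3 arrays, while K8 tumor 7, with Ucp1 at 11.30, had Ppargc1a at 8.04, within the spread of arrays without Ucp1 signal. Its dimmer second probe set also set these 3 arrays above the rest, with 7.10, 6.72 and 7.29 in Lgr5 tumors 6, 7 and 8, against 5.08 to 5.99 in the 22 others.

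Dio2, the enzyme that makes active thyroid hormone inside brown adipocytes, went its own way. Its values were 7.99, 7.96 and 7.59 in Lgr5 tumors 6, 7 and 8, whereas Lgr5 tumors 2 and 9 had the lowest values of all arrays, 6.46 and 6.50. The glands, where Ucp1 was low, had 7.61 and 7.92 (K8) and 7.75, 7.23 and 7.79 (Lgr5), in the same range as the arrays with high Ucp1. The highest Dio2 values, 8.33, 8.19, 8.19 and 8.16, belonged to Lgr5 tumors 1, 4 and 10 and K8 tumor 7, the arrays with the highest muscle list means. Over the 25 arrays Dio2 spanned 1.88 log2 units, less than each of the other 9 members.

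Otop1 and Kcnk3 code for membrane channels, a proton channel and a background potassium channel. Otop1 was 10.24, 9.83 and 10.55 in Lgr5 tumors 6, 7 and 8, beside 7.84 and 7.94 in Lgr5 tumors 2 and 9, and Kcnk3 was 9.51, 9.00 and 9.75 in the first 3 and 8.21 and 8.12 in the other pair. For Kcnk3 all 5 adipocyte-rich arrays lay above the other 20, which had 7.01 to 7.87. For Otop1 only K8 tumor 7, at 8.52, came above the lower pair, and the others lay between 6.22 and 7.69. Both genes thus stood at a middle level in the adipocyte-rich arrays that lacked Ucp1, unlike Cox7a1 and Slc27a2, which stood at or below the glands there.

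The genes whose values ran most like Ucp1 over the 25 arrays were, by Pearson r, 2 other members, Cox7a1 (0.98) and Cidea (0.94), and then Gpd2 (0.912), Chchd10 (0.911), Coq8a (0.904), Phospho1 (0.904), Acacb (0.901), Aqp11 (0.896), Letmd1 (0.894) and Angptl8 (0.891). Over the 20 arrays without Lgr5 tumors 2, 6, 7, 8 and 9 the same r values were 0.953 for Cox7a1, 0.885 for Cidea, 0.842 for Gpd2 and 0.769 for Chchd10. By ranks over the 25 arrays (Spearman rho) the values were lower, at 0.772 for Cox7a1, 0.801 for Cidea and 0.662 (Letmd1) to 0.787 (Phospho1) for the rest. Gpd2 is the mitochondrial glycerol-3-phosphate dehydrogenase, Acacb makes the malonyl-CoA that restrains fatty acid entry into mitochondria, and Letmd1 is a mitochondrial protein needed for thermogenesis in mouse brown fat. These correlations are a description over arrays that differ in their adipocyte and muscle list means, and the part of tissue make-up in them was not tested. Cox8b ran most like Fhl1 (0.976), a gene of skeletal muscle, and Ces1d (0.941), a lipase of adipocytes. Dio2 ran most like Tuba8 (0.84), Kcnc4 (0.776) and Matn3 (0.772), none of them among the genes listed for the other members. Kcnc4 covered only 5.76 to 6.13 over the 25 arrays and Matn3 only 5.25 to 5.51, about the first quartile of all values (5.37). Without detection calls, these low values could not be separated from background. Otop1 ran most like Idh3b (0.984) and Kcnk3 most like Odf3l1 (0.988).

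Genes that supply and burn fatty acids ran differently in the same 5 arrays. Among those of lipolysis, Pnpla2 and Lipe, the lipases that open triglycerides, lay between 12.28 and 12.47 and between 12.26 and 12.40 in all 5. Among those of mitochondrial oxidation, Acadvl, the very long chain acyl-CoA dehydrogenase, was 10.78, 10.43 and 10.81 in Lgr5 tumors 6, 7 and 8, beside 9.36 and 9.25 in Lgr5 tumors 2 and 9, and Hadha, of the trifunctional protein, was 12.35, 12.20 and 12.31, beside 11.43 and 11.48. Cpt1a, which loads fatty acids for entry into mitochondria, did not follow them, with 10.31, 10.43 and 10.20 in Lgr5 tumors 6, 7 and 8, beside 10.43 and 10.63 in Lgr5 tumors 2 and 9. Acot11, a thioesterase known from brown fat, was 9.69, 8.92 and 9.60 in the first 3 of these arrays, beside 6.56 and 6.57 in the other pair. The mean of the 22 genes of fatty acid release and oxidation was 11.46, 11.26 and 11.42 in Lgr5 tumors 6, 7 and 8, beside 10.59 and 10.49 in Lgr5 tumors 2 and 9.

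**Figure D4:**
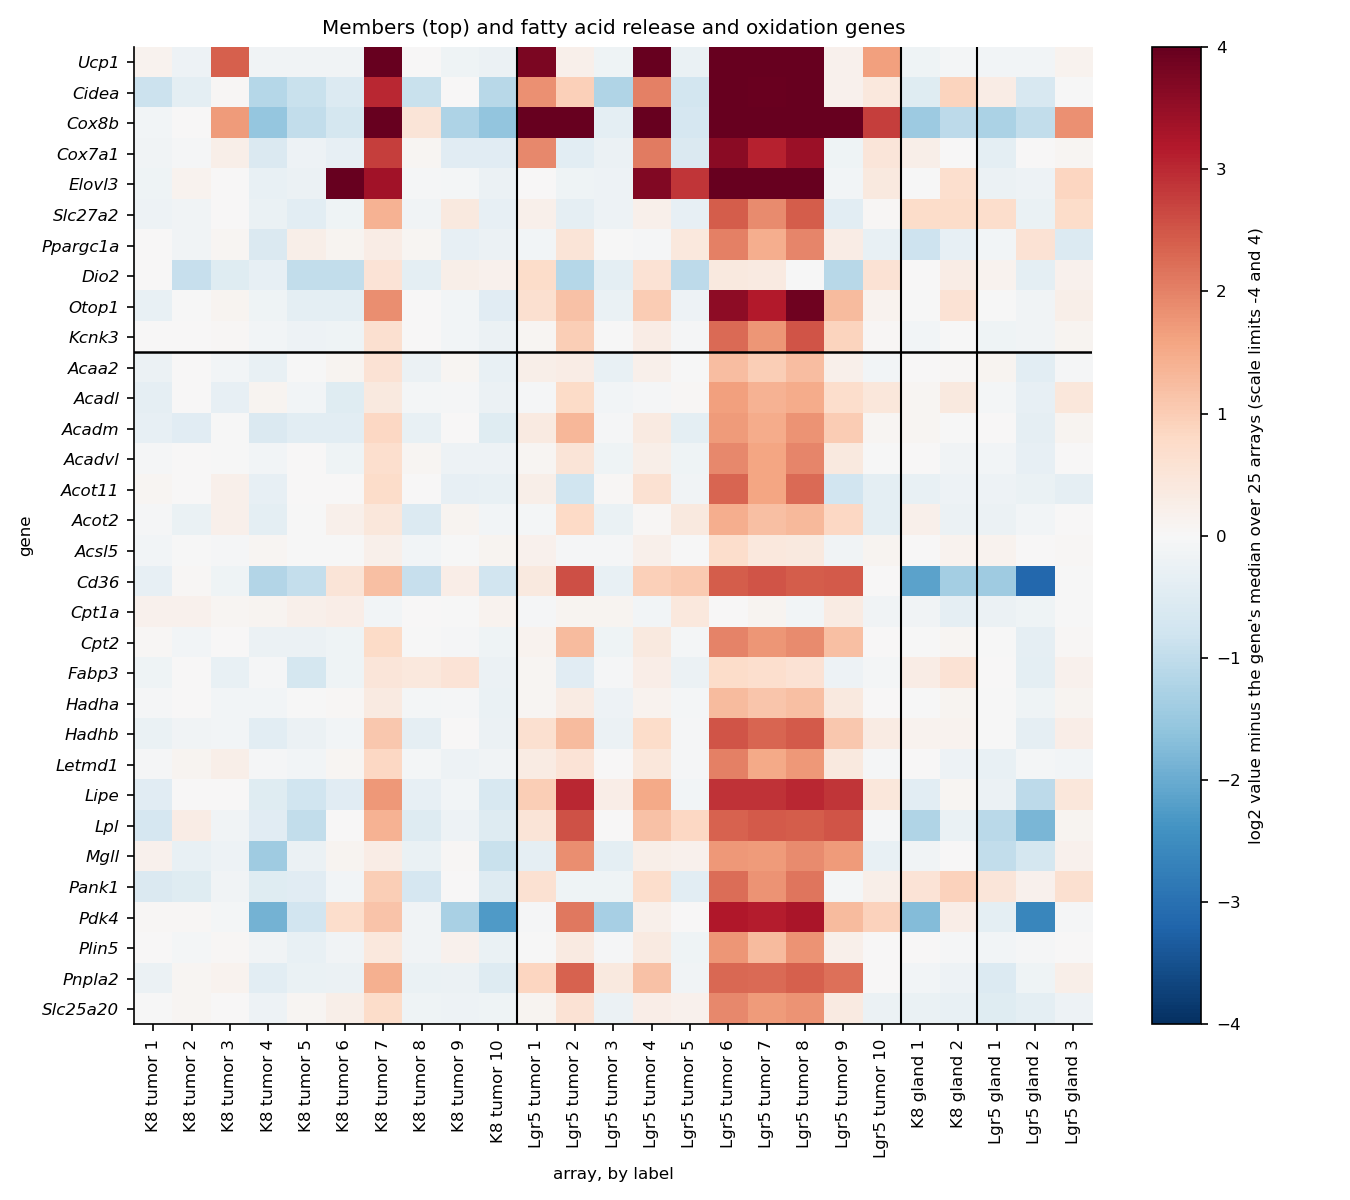
Log2 value minus the gene's median over the 25 arrays (colour), for the 10 members (upper rows) and 22 genes of fatty acid release and oxidation (lower rows), with arrays in columns by label. Lgr5 tumors 6, 7 and 8 are above the median for most genes, with Cpt1a near it and Dio2 near it in Lgr5 tumor 8, whereas Lgr5 tumors 2 and 9 are high for Cox8b, Kcnk3, Lipe and Pnpla2 and near the median for Ucp1 and Elovl3.

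Regulators of the brown fat programme divided as well. Ppara, a receptor for fatty acids that drives oxidation genes and Ucp1, was 9.66, 9.32 and 9.80 in Lgr5 tumors 6, 7 and 8, beside 7.14 and 6.80 in Lgr5 tumors 2 and 9. Pparg, the master regulator of all adipocytes, was 11.76 to 11.94 in all 5, and Ebf2, a factor of brown and beige precursors, 8.94 to 9.37, against 5.89 to 7.63 in the other 20 arrays. Prdm16, which holds brown adipocytes to their fate, covered only 6.43 to 7.24 over all arrays, with the 5 adipocyte-rich ones at 7.02 to 7.24. Zic1, a mark of interscapular brown fat in mice, was flat at 5.31 to 5.63 in all 25 arrays, Lgr5 tumors 6, 7 and 8 included. These values lie about the first quartile of all values (5.37), so without detection calls a low level could not be separated from background. Lhx8, another gene of the regulator list, was lower in K8 than in Lgr5 tumors (-0.27 ± 0.07, SE; limma adjusted p = 0.0145). Between Lgr5 tumors and Lgr5 glands Lhx8 did not pass (0.25 ± 0.10, limma adjusted p = 0.0809). Whether the Ucp1 signal came from brown or beige adipocytes was not tested. Hoxc8 and Hoxc9, position genes listed as marks of subcutaneous and beige adipocytes, were 11.32 to 12.07 and 7.10 to 7.86 in the 5 arrays, against at most 10.30 and 6.49 in the others, and the mean of all 9 beige marks measured was 8.27 to 8.68 in the 5 arrays, against 6.75 to 7.74 in the others. Among the other beige marks, P2rx5, an ATP-gated channel, was 8.64, 8.22 and 8.95 in Lgr5 tumors 6, 7 and 8, beside 7.52 and 7.63 in Lgr5 tumors 2 and 9. Slc36a2, an amino acid carrier, was 10.77 to 11.48 in all 5, against at most 9.96 in the others. Tmem26 and Tbx1 covered only 5.72 to 6.29 and 6.13 to 6.89 over the 25 arrays. Tnfrsf9, also a beige mark, went the other way and was lower in tumors than in glands of both lines. Its log2 difference was -1.09 ± 0.26 in the Lgr5 line (SE, limma adjusted p = 0.0128) and -1.22 ± 0.31 in the K8 line (limma adjusted p = 0.0216).

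The first question of the design is how tumors differ from glands of the same line. Between Lgr5 tumors and Lgr5 glands none of the members passed (0 of 10; limma, adjusted p under 0.05), while of all 19937 genes 15.9% were called, 5.28% higher and 10.6% lower. An unadjusted p under 0.05 was found for 2 of 10 members and for 32% of all genes. Cox8b averaged 10.83 ± 2.34 in Lgr5 tumors (SD, n = 10) and 7.10 ± 1.72 in Lgr5 glands (SD, n = 3), that is 3.73 ± 1.35 higher in log2 (SE; limma adjusted p = 0.0604), and Kcnk3 averaged 8.12 ± 0.98 in Lgr5 tumors and 7.18 ± 0.15 in Lgr5 glands, a difference of 0.94 ± 0.42 (limma adjusted p = 0.129). Ucp1 averaged 8.64 ± 2.94 in Lgr5 tumors and 5.68 ± 0.14 in Lgr5 glands, a difference of 2.96 with a 95% interval of -0.06 to 5.98 (limma adjusted p = 0.166). The SD within the Lgr5 tumors (2.94) was close to this difference. The median difference of the members was 1.43, beside -0.01 over all genes. Cox8b passed, and was the single member to do so, when K8 tumor 7, Lgr5 tumor 3, Lgr5 tumor 5 or Lgr5 tumor 10 was left out (limma adjusted p = 0.0331, 0.0253, 0.0264 and 0.0479). Fits that left out 1 array called 252 to 4990 of 19937 genes in this contrast. When arrays were weighted by their fit 5 members passed, and 7815 of 19937 genes were called in either direction.

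Other lists held genes past the threshold in this contrast; whether they differed from the members was not tested. Of 18 adipocyte genes 12 were higher in Lgr5 tumors and 0 lower, among them Fabp4 (2.50 ± 0.56, SE; limma adjusted p = 0.0105), and of 22 fatty acid genes 4 were higher and 0 lower, with Cd36, a fatty acid receptor, at 2.96 ± 0.66 (limma adjusted p = 0.0104). Of 20 brown fat regulators 4 were higher (Pparg, Ebf2, Cebpa and Prdm16) and 2 lower (Cebpb and Esrrg). Of 6 measured genes of adrenergic signalling 3 were higher, namely Adcy3, Prkar2b and Sik2, which pass on or limit the cyclic AMP signal. Of 9 beige marks 2 were higher (Hoxc8 and Slc36a2) and 1 lower (Tnfrsf9). Other lists were lower in Lgr5 tumors, with 0 genes higher: 10 of 12 squamous genes, 9 of 11 cell cycle genes and 3 of 11 luminal genes. Without Lgr5 tumors 2, 6, 7, 8 and 9 the contrast called 1 gene in all.

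Between K8 tumors and K8 glands 0 of 10 members passed (limma), against 9.10% of all genes called, 3.42% higher and 5.69% lower. Of the members 0 had an unadjusted p under 0.05, against 24.6% of all genes. Ucp1 averaged 6.43 ± 1.88 in K8 tumors (SD, n = 10) and 5.59 ± 0.06 in K8 glands (SD, n = 2), a log2 difference of 0.84 with a 95% interval of -2.71 to 4.40. That interval holds both large gains and large losses, and without K8 tumor 7 the difference was 0.30. The members' median difference was 0.01, beside -0.01 over all genes, and of the adipocyte genes 1 of 18 (Agt) was higher. Of 12 squamous genes 9 were lower in K8 tumors and 0 higher, and of 11 cell cycle genes 1 was lower and 0 higher. Creatine and calcium cycling, routes to heat that do not need UCP1, gave 1 of 12 genes higher, Ckb (brain-type creatine kinase, 0.86 ± 0.24, SE; limma adjusted p = 0.0297), which was also higher in the Lgr5 contrast (0.60 ± 0.20, limma adjusted p = 0.0467). There Gamt was higher too (0.91 ± 0.28, limma adjusted p = 0.0339). The mean of this list was nevertheless lower in Lgr5 tumors 2, 6, 7, 8 and 9, at 7.81 to 7.90, than in the 20 other arrays, at 8.30 to 9.30. Its genes went both ways. Ckmt1 was 6.36 to 6.87 in the 5 arrays, against 9.35 to 10.43 in the others, and Alpl 8.31 to 8.77, against 9.98 to 11.60. Gamt was higher in the 5 arrays, at 9.35 to 9.79, against 7.76 to 9.01. The part of tissue make-up in this mean was not tested.

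The second question is how tumors of the 2 lines differ, K8 minus Lgr5. Of the 10 members 3 were lower in K8 tumors and 0 higher (limma, adjusted p under 0.05). Of all genes 21.3% were called, 12.3% higher and 9.00% lower. An unadjusted p under 0.05 was found for 7 of 10 members and for 35.5% of all genes. Cox8b averaged 7.38 ± 2.06 in K8 tumors and 10.83 ± 2.34 in Lgr5 tumors (SD, n = 10 each), 10.9-fold lower (log2 difference -3.45 ± 0.91, SE; limma adjusted p = 0.0167). Kcnk3 averaged 7.23 ± 0.24 in K8 tumors and 8.12 ± 0.98 in Lgr5 tumors (-0.89 ± 0.29; limma adjusted p = 0.0339), and Otop1 6.68 ± 0.68 in K8 tumors and 8.10 ± 1.56 in Lgr5 tumors (-1.43 ± 0.48; limma adjusted p = 0.0404). The groups overlapped for all 3 genes, since K8 tumor 7 lay above and Lgr5 tumors 3 and 5 below most arrays of their groups.

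The remaining 7 members did not pass. Cidea differed by -1.87 ± 0.68 (SE; limma adjusted p = 0.0536), Ppargc1a by -0.66 ± 0.27 (limma adjusted p = 0.0816) and Ucp1 by -2.21 ± 0.99 (limma adjusted p = 0.111). Dio2 was nearest to no difference at -0.20, with a 95% interval of -0.76 to 0.36. The members' median difference was -1.33, beside 0.01 over all genes, and 17 of 18 adipocyte genes, 11 of 22 fatty acid genes and 5 of 20 brown fat regulators were lower in K8 tumors, with 0, 0 and 3 higher. The 3 regulators that were higher were Esrrg and Esrrb, estrogen-related receptors, and Ehmt1, a histone methyltransferase partner of Prdm16.

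The calls of these 3 genes were lost without the adipocyte-rich arrays. Without Lgr5 tumors 2, 6, 7, 8 and 9, Cox8b differed by -1.99 ± 1.09 (SE; limma adjusted p = 0.636), Otop1 by -0.25 ± 0.31 (limma adjusted p = 0.825) and Kcnk3 by -0.08 ± 0.11 (limma adjusted p = 0.825), and 0 of 19937 genes were called. With the adipocyte list mean of each array as a covariate the differences were 0.30 for Cox8b, 0.47 for Otop1 and 0.20 for Kcnk3, and again 0 genes were called. Single arrays counted too. Cox8b passed in all 25 fits that left out 1 array, Kcnk3 in 17 (not without K8 tumor 4, 5 or 10 or Lgr5 tumor 2, 6, 7, 8 or 9) and Otop1 in 12 (not without K8 tumor 1, 2, 3, 4, 5, 6, 8 or 10 or Lgr5 tumor 2, 6, 7, 8 or 9). Without K8 tumor 7, Ucp1 (-2.75, limma adjusted p = 0.0327), Cidea (-2.23, limma adjusted p = 0.017) and Cox7a1 (-1.53, limma adjusted p = 0.0345) passed as well, so that 6 members were lower. Fits that left out 1 array called 2291 to 5698 of 19937 genes in this contrast, in either direction.

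**Figure D5:**
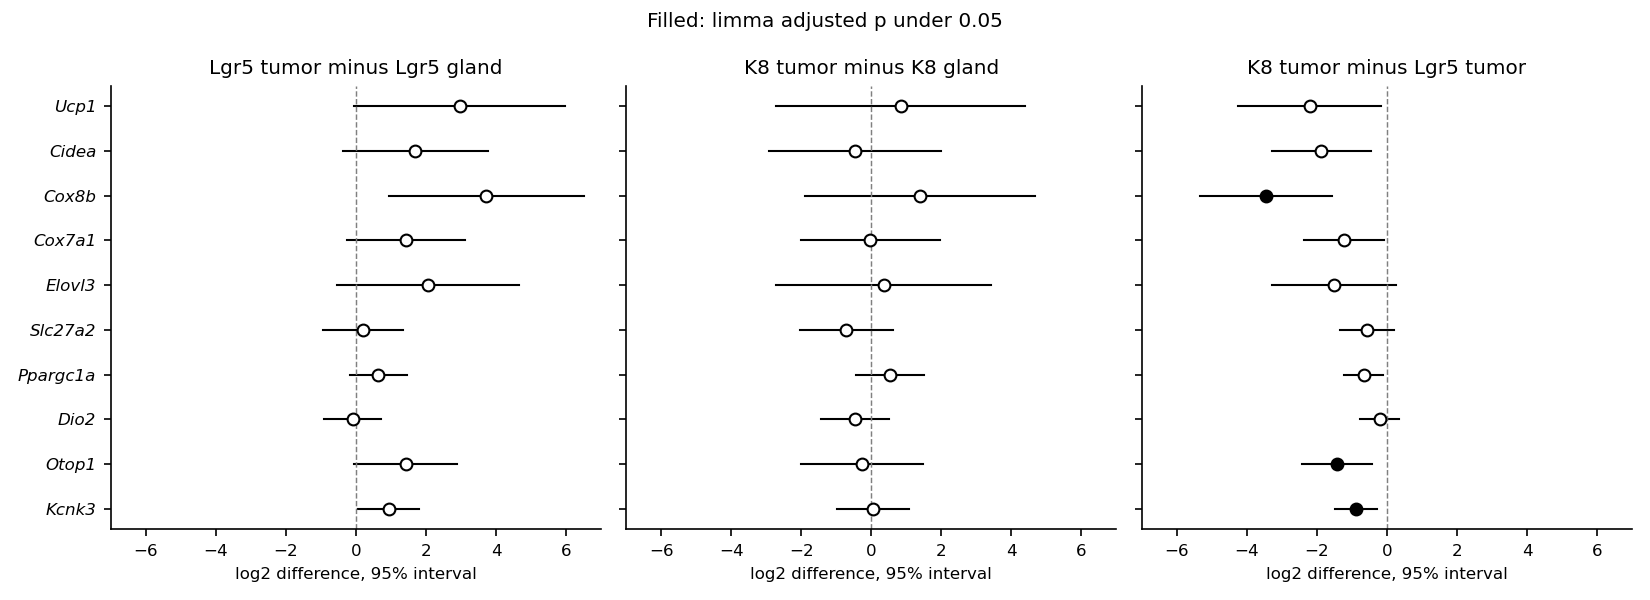
Log2 difference (horizontal axis) with its 95% interval for each of the 10 genes (rows) in the contrasts of tumors with glands of each line and of K8 tumors with Lgr5 tumors; filled points have a limma adjusted p under 0.05. Filled points are Cox8b (-3.45), Otop1 (-1.43) and Kcnk3 (-0.89) in the contrast of K8 with Lgr5 tumors, and 0 members in the other contrasts shown.

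The difference between the lines in their tumor minus gland contrasts was tested directly, as K8 minus Lgr5. It was past the threshold for 0 members and 0 of all genes (limma; 0% called), and 0 members and 883 of 19937 genes had an unadjusted p under 0.05. For Ucp1 it was -2.11, with a 95% interval of -6.78 to 2.55, and for Cox8b -2.35, with one of -6.65 to 1.96. With 2 and 3 glands behind it, this contrast left wide intervals for the members. The 2 tumor minus gland contrasts and the contrast of tumors share arrays, so their values are given side by side and not set against each other.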

How the data were processed

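Total RNA of mammary tumors and glands was amplified from 100 ng, labelled and hybridised to 1-colour arrays, per the labels' protocols. The authors deposited log2 values for 34760 probe sets on each array, made with affy per the submitters' processing notes; the log base was taken from the range of the values, the array medians (6.34 to 6.43) show a common scale, and the background correction, summarization and genome build are not stated in any source used. Gene names came from GEO's annotation of the array, where 21640 probe sets carry 1 symbol, 1321 several and 11799 none; 21553 were found in the RefSeq table of GRCm38.p6 and 0 symbols changed. For the 954 symbols with several probe sets the one with the highest mean over the 25 arrays was kept, leaving 19937 genes. No arrays held identical values (highest correlation 0.996).

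Arrays were grouped by title. The 4 group means were fitted over all arrays with limma 3.58.1 (R 4.3.3, lmFit and eBayes), p-values were adjusted by Benjamini-Hochberg over all genes, and the threshold was 0.05. The fit was tested on simulated data. List means leave out the members. The named genes were the members, for each the 3 genes with the highest Pearson r (10 for Ucp1; predicted genes, RNA genes and receptor segments left out), up to 4 genes with the smallest adjusted p in each list and genes paired with a member by role; further genes named for their values in single arrays come from the same lists and were chosen after those values were seen. The members and lists were chosen with earlier results of these data known. Among lists not described with the members, of 9 endothelial genes 8 were higher in Lgr5 tumors than in Lgr5 glands, and of 7 hepatocyte genes 1. Alternatives were fits on the compared groups only, array weights, a replicate block, adipocyte or muscle means as covariates, quantile normalization, a filter on the dimmest 25% of genes, a trended robust eBayes, the mean of probe sets and the omission of arrays. Motifs were searched as exact letters.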

Additional observations from a re-analysis of the deposited data

Results flagged for a closer look

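In K8 tumor 7, 7 of the 10 genes lay far above the other 9 K8 tumors. Its gap to the next K8 tumor, divided by the range of the group, passed Dixon's critical value for Ucp1 (11.30, ratio 0.55), Cidea (10.38, ratio 0.72), Cox8b (12.49, ratio 0.52), Cox7a1 (11.14, ratio 0.77), Slc27a2 (7.12, ratio 0.54), Otop1 (8.52, ratio 0.76) and Kcnk3 (7.87, ratio 0.67). In all, 20 groups of 10 arrays were tested and 7 passed, and chance passes about 1 in 20 groups. The 7 values belong to 1 array and are not independent. The same array had the highest adipocyte (10.95) and skeletal muscle (10.14) list means of the K8 tumors, and the part of these tissues in the 7 values was not tested. Awat1 was 5.42 in it, as in most arrays.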

How the results depend on the processing

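The members' counts followed the choice of arrays and of model. In K8 against Lgr5 tumors, 3 members were lower in the reported fit, 1 in a fit on the compared groups only, 7 with array weights, 6 with a replicate block, and 0 after adding the adipocyte mean as covariate, without Lgr5 tumors 2, 6, 7, 8 and 9, or without these and K8 tumor 9 and Lgr5 tumor 10 (all 7); leaving out single arrays gave 1 to 6. In Lgr5 tumors against glands, members higher were 0 as reported, 5 with array weights, 1 when K8 tumor 9 and Lgr5 tumor 10 were dropped, 1 with the filter on dim genes and 0 to 1 without single arrays. Muscle as a covariate, quantile normalization, the trended robust fit and the mean of probe sets kept these counts within 1.5 times. The intensity scale has no detection calls, so dim members such as Slc27a2 could not be separated from background.

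Genes called in Lgr5 tumors against glands numbered 3168 as reported, 690 on the compared groups, 7815 with array weights, 1737 with the replicate block, 0 with the adipocyte covariate, 1 without the 5 arrays, 5387 when K8 tumor 9 and Lgr5 tumor 10 were dropped, and 252 (without Lgr5 gland 1) to 4990 (without Lgr5 tumor 10) without single arrays. For K8 tumors against glands they were 1815, 2859 on the compared groups, 6341 with weights, 2929 with the adipocyte covariate, 3963 when K8 tumor 9 and Lgr5 tumor 10 were dropped, 5351 without all 7, and 30 (without K8 gland 1) to 3382 (without K8 tumor 9). For K8 against Lgr5 tumors they were 4246, 7997 with weights, 0 with the adipocyte covariate, without the 5 and without all 7, and 2291 (without Lgr5 tumor 8) to 5698 (without Lgr5 tumor 3). The difference of contrasts called 0, 1 when K8 tumor 9 and Lgr5 tumor 10 were dropped, and 0 to 14 (without K8 gland 2). Same-numbered arrays shared only a number: of 22 pairs 5 had correlated deviations over 0.1 (-0.37 to 0.51), and the replicate block is given for its counts alone.

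With the adipocyte covariate, log2 differences in Lgr5 tumors against glands turned to -0.15 for Ucp1, -0.95 for Cidea, -0.35 for Cox8b, -0.28 for Cox7a1, -0.99 for Slc27a2, -0.11 for Ppargc1a, -0.63 for Otop1 and -0.24 for Kcnk3. In K8 against Lgr5 tumors they turned to 0.64 for Ucp1, 0.57 for Cidea, 0.30 for Cox8b, 0.34 for Cox7a1, 0.27 for Elovl3, 0.52 for Slc27a2, 0.03 for Ppargc1a, 0.47 for Otop1 and 0.20 for Kcnk3. In the difference of contrasts they turned to 0.52 for Ucp1, 0.07 for Cidea, 1.11 for Cox8b, 0.09 for Slc27a2, 0.52 for Ppargc1a, 0.06 for Otop1 and 0.11 for Kcnk3, and for Kcnk3 in K8 tumors against glands to -0.13. Without the 5 arrays, Slc27a2 turned to -0.40 and Dio2 to 0.11 in Lgr5 tumors against glands, Slc27a2 to 0.02 in K8 against Lgr5 tumors, and Ppargc1a to 0.51 in the difference of contrasts. Without all 7, Slc27a2 turned to -0.41 in Lgr5 tumors against glands, Cox7a1 to 0.03 in K8 tumors against glands, also without K8 tumor 9 and Lgr5 tumor 10 alone (0.03), and Ppargc1a to 0.47 in the difference of contrasts. With the replicate block, Slc27a2 turned to -0.21 in Lgr5 tumors against glands, and Ucp1 to -0.01, Elovl3 to -1.25 and Kcnk3 to -0.17 in K8 tumors against glands. Leaving out single arrays, K8 tumors against glands ranged over -1.15 to 0.21 for Cidea, -0.33 to 0.09 for Cox7a1, -0.06 to 0.70 for Elovl3, -0.02 to 0.10 for Kcnk3 and -0.57 to 0.05 for Otop1; Lgr5 tumors against glands over -0.27 to 0.03 for Dio2 and -0.12 to 0.37 for Slc27a2; and the difference of contrasts over -0.42 to 0.15 for Ppargc1a. None of these turned values was past the threshold, and the cause was not tested.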

Other observations

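These genes of the same lists were chosen after their values were seen. Mc5r, a melanocortin receptor known from sebaceous glands, was 9.10, 9.38, 9.09 and 9.51 in Lgr5 tumors 2, 6, 7 and 8 but 6.31 in Lgr5 tumor 9, and 5.19 to 6.52 in the 20 arrays outside these 5. Its split ran between Lgr5 tumors 2 and 9, which were alike in Ucp1. Elovl6, the elongase of medium-length fatty acids made by lipogenesis, was 12.74, 12.76 and 12.76 in Lgr5 tumors 6, 7 and 8, 12.14 in Lgr5 tumor 9 and 11.16 in Lgr5 tumor 2. Ucp3, an uncoupling protein relative of muscle and brown fat, was 8.72, 8.20 and 9.01 in Lgr5 tumors 6, 7 and 8, beside 7.42 and 7.26 in Lgr5 tumors 2 and 9, with at most 6.93 in the 20 others, the arrays with high muscle markers included. Pdk4, which spares glucose when fat is burnt, was 12.57, 12.53 and 12.65 in Lgr5 tumors 6, 7 and 8, beside 11.49 and 10.63 in Lgr5 tumors 2 and 9.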
